A study of Arabidopsis thaliana with 4 samples.

Results

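The genes described are 10 members of the SABATH family of methyltransferases in Arabidopsis thaliana: AT5G37970, AT5G37990, AT5G38020, AT5G38100, AT5G38780, BSMT1 (AT3G11480), JMT (AT1G19640), AT5G66430, AT3G21950 and NAMT1 (AT5G04370). They were taken by locus from the array's probe annotation, where 14 probes carry one of these loci, out of 43603 probes and 29030 loci in all. The genes were chosen by family and with the log2 ratios of both transgenic lines over wild type known, so these ratios are given as a description and carry no test. RNA came from untreated 21-day-old whole plants in the Col-0 background, grown on agar with 1% sucrose. The groups are a line overexpressing a truncated form of the cowpea factor VuDREB2A, a line overexpressing its full-length form, both from the constitutive 35S promoter, and wild type Col-0. For each line, 2 Agilent 2-colour arrays paired its RNA with wild type RNA, with the line in Cy3 on replicate 1 and in Cy5 on replicate 2. As far as the labels state, each construct is represented by 1 line. Only 2 wild type replicates are counted in the design text, so both lines may have been set against the same wild type RNA.

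SABATH enzymes transfer a methyl group from S-adenosylmethionine to the carboxyl group, or in some members a ring nitrogen, of small molecules. The family is named after its founding salicylic acid, benzoic acid and theobromine methyltransferases. In Arabidopsis it turns plant hormones and defence compounds into methyl esters, some of which are volatile: JMT makes methyl jasmonate, BSMT1 makes methyl salicylate and methyl benzoate, and NAMT1 makes methyl nicotinate. Methyl esterases can reverse the reaction, and the spent cofactor is recycled through homocysteine and methionine. Several family genes lie close together on chromosome 5, which carries 7 of the 10 genes described. VuDREB2A belongs to the DREB2 transcription factors, which are known to bind the dehydration-responsive element of stress genes.

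Probes well above background made up 65.6% to 72.5% of each channel, with 0 saturated gene spots. Of the 10 genes, 7 were well above background in all 8 channels (a line and a wild type channel on each of 4 arrays). NAMT1 reached it in 7, missing it in the truncated line on 1 array. BSMT1 and AT5G66430 reached it in 0 channels, so their measured log2 ratios are listed with no linear fold. That left 8 of the 10 genes among the 22438 features tested across the array. All values below are log2 ratios of line over wild type, or normalised intensities of a gene's brightest probe, with the SD between the 2 arrays of the line as error (n = 2). The 2 arrays of a line also differ in dye orientation, so this SD cannot separate replicates from dyes. The number of arrays limits the precision, and nothing in the labels shows how far the replicates were grown apart. In whole plants, fewer cells of a type and less RNA per cell cannot be told apart.

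In the truncated line, 3 genes of the chromosome 5 group were lower than wild type by more than 2-fold on both arrays: AT5G37990, AT5G37970 and AT5G38020. In the same line JMT was higher, and with the processing used here NAMT1, AT5G38780 and AT3G21950 were lower by smaller amounts. For NAMT1 this size depended on the processing. In Agilent's own log ratios its mean in the truncated line was -1.54, beside -1.38 for AT5G38020. With offset 0 in the background correction the means were -1.04 for NAMT1 and -1.35 for AT5G38020. In the full-length line only AT5G38780 differed from wild type by more than 2-fold on both arrays, and it was higher. Across all 10 genes, with BSMT1 and AT5G66430 at their measured ratios, the median log2 ratio was -0.39 in the truncated line (-0.32 and -0.46 on its arrays), and the median of all tested features was 0.00. In the full-length line the median of the 10 genes was -0.04 (-0.15 and 0.03 on its arrays), beside 0.01 over all tested features.

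**Figure D1:**
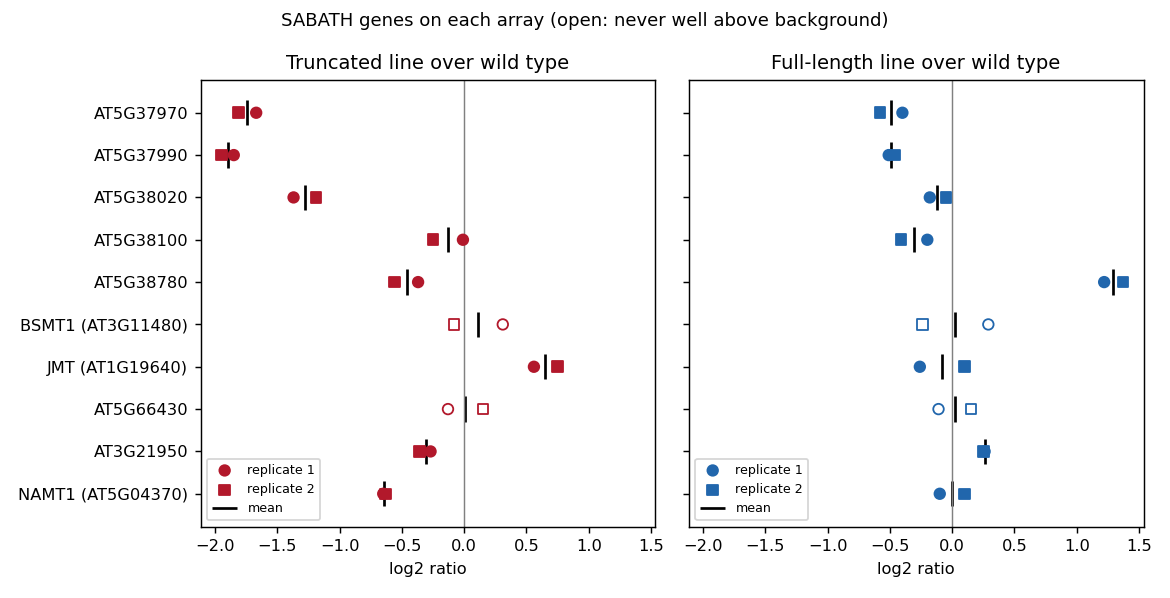
Log2 ratio of line over wild type for the 10 SABATH genes on each array, with the truncated line in the left panel and the full-length line in the right panel. Circles are replicate 1, squares replicate 2, black bars the mean of both, and open symbols mark genes never well above background. AT5G37970, AT5G37990 and AT5G38020 lie between -1.95 and -1.19 in the truncated line, whereas AT5G38780 lies at 1.22 and 1.37 in the full-length line.

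AT5G37990 had intensities of 247 and 264 in the truncated line, against 888 and 1020 in wild type on the same arrays. The full-length line had 648 and 643, against 926 and 887 in wild type. Every line value was below every wild type value, and the truncated line was the lowest. The log2 ratios were -1.85 and -1.95 in the truncated line (mean -1.90 ± 0.07, a level in wild type 3.73 times that in the line). They were -0.51 and -0.46 in the full-length line (mean -0.49 ± 0.04, wild type 1.4 times the line).

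AT5G37970, its close neighbour on the chromosome, showed nearly the same 4 values. Its intensities were 207 and 175 in the truncated line, against 656 and 615 in wild type. Those in the full-length line were 434 and 412, against 572 and 615 in wild type. Both lines were again below wild type on every array, with no overlap. The log2 ratios were -1.67 and -1.81 in the truncated line (-1.74 ± 0.10, wild type 3.33 times the line) and -0.40 and -0.58 in the full-length line (-0.49 ± 0.13). Over the 4 arrays the Euclidean distance between the log2 ratios of AT5G37970 and AT5G37990 was 0.28, the smallest of any pair among the 8 tested genes. The next closest pair, AT3G21950 and NAMT1, was at 0.61. Each of AT5G37970 and AT5G37990 has 1 probe, and how far these probes pick up each other's transcript was not tested.

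AT5G38020 was lower in the truncated line and near wild type in the full-length line. Intensities were 644 and 661 in the truncated line, against 1660 and 1510 in wild type. Those in the full-length line were 1470 and 1520, against 1670 and 1570 in wild type. The truncated line lay far below all other channels, whereas the full-length line lay just under the wild type of its own arrays. Log2 ratios were -1.37 and -1.19 (-1.28 ± 0.12, wild type 2.43 times the line) in the truncated line. The full-length line gave -0.18 and -0.05 (-0.12 ± 0.10). The fourth gene of this chromosome group, AT5G38100, did not share the pattern. Its brightest probe gave -0.01 and -0.25 in the truncated line and -0.20 and -0.41 in the full-length line. Its other probes averaged -0.14 and -0.17 in the truncated line and -0.27 and -0.17 in the full-length line, so all 3 probes were slightly below wild type in both lines.

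AT5G38780 lay on opposite sides of wild type in the lines. Its intensities were 125 and 113 in the truncated line, against 161 and 166 in wild type. Those in the full-length line were 365 and 394, against 157 and 153 in wild type. The wild type channels of the 4 arrays, which may hold the same RNA more than once, were steady after scaling between arrays. The truncated line was below them and the full-length line above them. Log2 ratios were -0.37 and -0.56 in the truncated line (-0.46 ± 0.14), and 1.22 and 1.37 in the full-length line (1.29 ± 0.11, 2.45-fold higher). The ratio in the full-length line was 0.83 with outlier-marked spots kept, and 1.95 in Agilent's own log ratios. AT3G21950 showed the same signs at a smaller size, with -0.27 and -0.36 in the truncated line (-0.31 ± 0.06) and 0.26 and 0.25 in the full-length line (0.26 ± 0.01). Of all tested features, 7.62% were below wild type on both truncated arrays and above it on both full-length arrays.

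**Figure D2:**
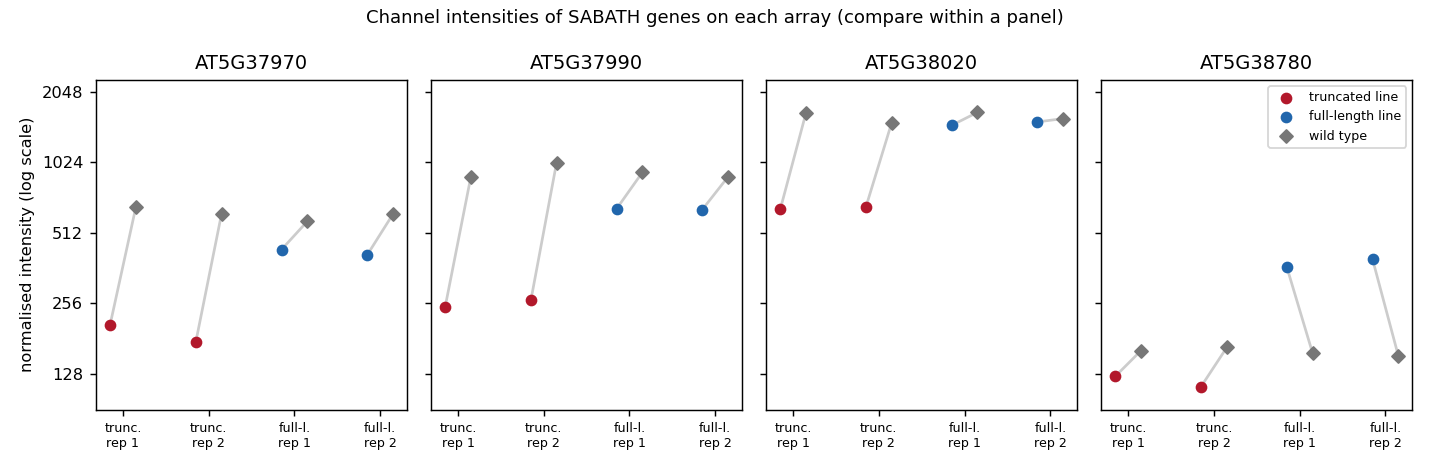
Normalised intensity (log scale) of 4 SABATH genes on each array, with the truncated line (red) or full-length line (blue) left of the wild type (grey diamonds) hybridised with it, joined by a line. Wild type stays at 153 to 166 for AT5G38780, while the full-length line reaches 365 and 394. Intensities are compared within a panel, since probes differ in how they bind.

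JMT, whose product methyl jasmonate is a volatile form of the jasmonate hormone, had intensities of 238 and 262 in the truncated line, against 161 and 156 in wild type. The full-length line had 133 and 150, against 159 and 140 in wild type. The truncated line was above all other channels, and the full-length line overlapped wild type. Log2 ratios were 0.56 and 0.75 in the truncated line (0.65 ± 0.14, 1.57-fold higher) and -0.26 and 0.10 in the full-length line (-0.08 ± 0.25). The other probes of JMT, well above background in 2 and 4 of 8 channels, averaged 0.57 and 0.14 in the truncated line, where 1 of them gave 0.14 and 1.00 on the arrays. The mean ratio of JMT in the truncated line was 1.09 in Agilent's own log ratios and 0.45 as the mean over its probes.

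NAMT1, the nicotinate methyltransferase gene, had intensities of 109 and 96.2 in the truncated line, against 170 and 149 in wild type. The full-length line had 151 and 174, against 162 and 162 in wild type. Log2 ratios were -0.65 and -0.63 in the truncated line (-0.64 ± 0.01) and -0.10 and 0.10 in the full-length line (0.00 ± 0.15). The truncated line was thus below wild type on both arrays, but was well above background on only 1 of them. Its mean ratio in the truncated line was -1.54 in Agilent's own log ratios. BSMT1, the methyl salicylate and methyl benzoate synthase gene, gave 0.31 and -0.08 in the truncated line and 0.29 and -0.24 in the full-length line. AT5G66430 gave -0.13 and 0.15 in the truncated line and -0.11 and 0.15 in the full-length line. For both genes the sign differed between the arrays of a line, and neither signal was above background.

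Of the 10 genes, 7 were below wild type on both truncated arrays and 1 was above on both, beside 33.1% and 35.3% of all tested features. On the full-length arrays 4 were below on both and 2 above on both, beside 32.8% and 37.4%. BSMT1 and AT5G66430 had opposite signs on the arrays of each line and enter none of these counts. At least 2-fold below wild type on both truncated arrays were 3 of the 10, beside 0.201% of all features. At least 2-fold above on both full-length arrays was 1, beside 0.392%. In the opposite directions, 0 of the 10 were 2-fold above wild type on both truncated arrays, beside 0.223%, and 0 were 2-fold below on both full-length arrays, beside 0.0624%. The genes were chosen with these ratios known, so nothing is read from these shares. Counted from the lowest of 22438 features in the truncated line, AT5G37990 ranked 7, AT5G37970 ranked 8 and AT5G38020 ranked 28. In the full-length line AT5G37990 and AT5G37970 ranked 379 and 381 from the lowest, and AT5G38780 ranked 46 from the highest.

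**Figure D3:**
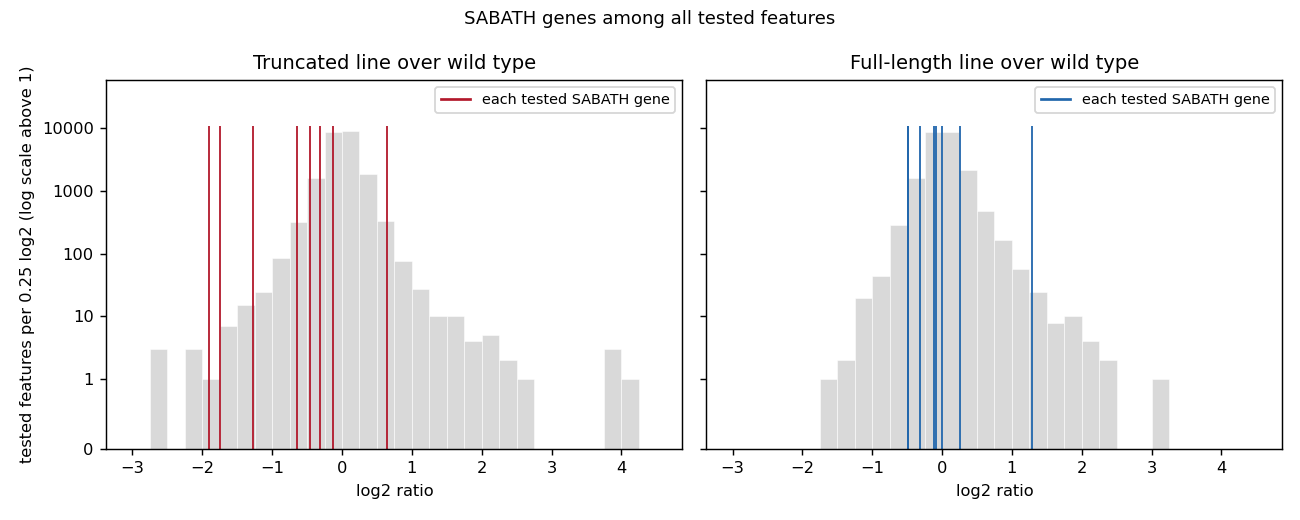
Number of tested features per bin of 0.25 log2 units of line over wild type (grey bars, on a log scale above 1), with the mean ratio of each of the 8 tested SABATH genes as a coloured line, truncated line left and full-length line right. In the truncated line AT5G37990 and AT5G37970 lie at -1.90 and -1.74 in the sparse left tail. In the full-length line AT5G38780 lies apart from the other 7, at 1.29.

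The genes whose pattern was most like AT5G37970 and AT5G37990 were taken as the 5 other features with a locus at the smallest Euclidean distance from their mean over the 4 arrays, out of 20329. These were VSP1 (distance 0.56), AT4G11320 (0.61), VSP2 (0.61), ASN1 (0.65) and AT4G29270 (0.68). VSP1 and VSP2 encode vegetative storage proteins and are textbook jasmonate-induced genes, and ASN1 encodes a sugar-repressed asparagine synthetase. VSP1 had -2.22 and -2.10 in the truncated line and -0.68 and -0.54 in the full-length line. ASN1 had -1.37 and -1.52 in the truncated line and -0.70 and -0.80 in the full-length line. Both were below wild type on every array, further in the truncated line. This follows from their choice by closeness to the ratios of AT5G37970 and AT5G37990.

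The loci around the chromosome 5 group are not on the list of 10, and their ratios were tested with limma. From AT5G37900 to AT5G38200 the array holds 34 loci, of which 4 are SABATH genes described above and 30 are other loci. Of these 30, 15 were tested. In the truncated line 5 of the 15 fell and 1 rose, with a median log2 ratio of -0.17 beside 0.00 over all features, of which 13.2% passed the test in that line (6.15% as lower, 7.09% as higher). In the full-length line 3 of the 15 rose and 0 fell, with a median of 0.05 beside 0.01, where 15.5% of all features passed (9.41% as higher, 6.14% as lower), and 2 of the 15 were lower at an unadjusted p under 0.05. For the difference of truncated minus full-length, 4 of the 15 were lower and 0 higher (1 higher at an unadjusted p under 0.05). Over all features 3.12% passed that test, 2.15% as lower and 0.972% as higher.

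AT5G37940, which lies before AT5G37970 in the TAIR10.1 gene order, fell in the truncated line with log2 ratios of -1.47 and -1.31 (-1.39 ± 0.11, adjusted p = 0.00275). It rose in the full-length line with 0.47 and 0.27 (0.37 ± 0.14, adjusted p = 0.0377), a call lost without replicate 1 of that line, with outlier-marked spots kept (0.23, adjusted p = 0.144), with offset 0 and without the filter on dim probes. The arrays of each line thus lay on opposite sides of wild type, and the difference of truncated minus full-length was -1.76 (SE 0.11, adjusted p = 0.00653). AT5G38000, the next locus after AT5G37990, fell in the truncated line with -0.86 and -0.81 (-0.84 ± 0.04, adjusted p = 0.00407). The full-length line gave 0.18 and 0.08 (0.13 ± 0.07, adjusted p = 0.206). Another probe of AT5G38000, above background in 0 of 8 channels, gave -0.26 in the truncated and 0.04 in the full-length line, and the mean over both probes was -0.55 in the truncated line. The ratio of AT5G38000 in the truncated line was -1.64 in Agilent's own log ratios.

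Further along, AT5G38010 (-0.26 ± 0.03, adjusted p = 0.0425) and AT5G38030 (-0.48 ± 0.03, adjusted p = 0.0183), on either side of AT5G38020, fell in the truncated line. These were named after their values were seen, and so was AT5G37960. AT5G38200, at the end of the stretch, fell in it too (-0.67 ± 0.04, adjusted p = 0.00594). Not every locus beside these genes passed the test: AT5G37960, next to AT5G37970, gave -0.16 and -0.18 in the truncated line, a mean of -0.17 ± 0.01 (adjusted p = 0.115). The locus between AT5G37970 and AT5G37990, AT5G37980, was above background in 3 of 8 channels and was not tested. NF-YC12, which encodes a subunit of the NF-Y transcription factor, rose in both lines, by 0.70 ± 0.01 in the truncated line (adjusted p = 0.00536) and 0.77 ± 0.05 in the full-length line (adjusted p = 0.00384). Its full-length call was lost with outlier-marked spots kept (0.47, adjusted p = 0.107). The noncoding RNA locus AT5G38005 gave -0.28 ± 0.14 in the truncated line (adjusted p = 0.0897) and rose in the full-length line (0.50 ± 0.14, adjusted p = 0.0213), a call lost without replicate 1 of the full-length line, without the filter and with marked spots kept (0.29, adjusted p = 0.124). With arrays centred on their median in place of loess, all 36 calls recomputed under the alternatives, those of the genes named by the rule here and in the lists below, were lost, and 0 changed sign. AT5G38010, AT5G38030 and all calls of the difference between the lines were not among these 36.

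**Figure D4:**
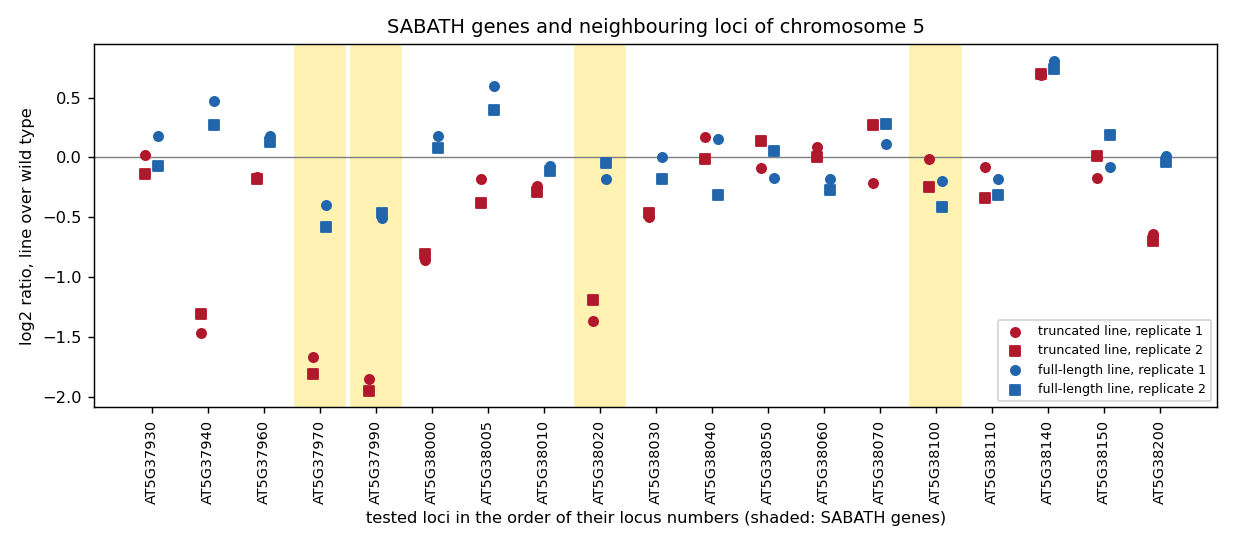
Log2 ratio of line over wild type on each array (circles replicate 1, squares replicate 2) for the tested loci from AT5G37930 to AT5G38200 in the order of their locus numbers, with SABATH genes shaded. In the truncated line (red) the unshaded loci AT5G37940 and AT5G38000 lie at -1.39 and -0.84 on average beside the shaded genes, while in the full-length line (blue) they lie at 0.37 and 0.13.

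The array holds probes for 14 other loci counted here as SABATH genes. These were mostly dim: 6 were above background in 0 of 8 channels, and 5 were tested. In the truncated line 1 of the 5 rose and 0 fell (median 0.10), where 7.09% of all features were called higher. In the full-length line 2 of the 5 rose and 0 fell (median 0.24), where 9.41% of all features were called higher. At an unadjusted p under 0.05, 0 of the 5 were lower in the truncated line and 1 in the full-length line under limma. FAMT, the farnesoic acid methyltransferase gene, rose in both lines, with 0.54 and 0.35 in the truncated line (0.45 ± 0.14, adjusted p = 0.0303) and 0.57 and 0.38 in the full-length line (0.47 ± 0.13, adjusted p = 0.0225). The next locus, AT3G44870, gave 0.10 ± 0.00 in the truncated line (adjusted p = 0.294) and rose in the full-length line (0.29 ± 0.04, adjusted p = 0.0297). Without replicate 1 of the line in question, FAMT lost its call in both lines, and AT3G44870 lost its call without either full-length replicate. Without the filter on dim probes all 3 calls were lost. With marked spots kept the full-length calls were lost, at 0.24 for FAMT (adjusted p = 0.226) and 0.19 for AT3G44870 (adjusted p = 0.27). In Agilent's own log ratios FAMT was 0.84 in the truncated line (adjusted p = 0.0508) and 0.88 in the full-length line (adjusted p = 0.0415), and AT3G44870 was 0.47 in the full-length line (adjusted p = 0.0966). Another probe of FAMT, above background in 0 channels, gave 0.16 in the truncated line and 0.10 in the full-length line. IAMT1, which methylates the auxin indole-3-acetic acid, gave 0.24 ± 0.01 in the truncated line (adjusted p = 0.0589) and -0.20 ± 0.07 in the full-length line (adjusted p = 0.0863). The gibberellin methyltransferase genes GAMT1 and GAMT2 were above background in 1 and 0 channels and were not tested.

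Genes that supply and recycle the methyl donor rose in part in the truncated line. Of 11 tested genes of the S-adenosylmethionine cycle, 3 rose and 0 fell in the truncated line (median 0.26), where 7.09% of all features were called higher, and 0 passed in either direction in the full-length line under limma (median -0.06, with 0 at an unadjusted p under 0.05). The difference between the lines passed for 2, both higher in the truncated line, beside 0.972% of all features called higher in that comparison. MS2, a methionine synthase gene, rose 2.1-fold in the truncated line, with log2 ratios of 1.15 and 0.99 (1.07 ± 0.11, adjusted p = 0.00407). The full-length line gave 0.15 and -0.03 (0.06 ± 0.13, adjusted p = 0.63), and the lines differed by 1.01 (SE 0.11, adjusted p = 0.0209). Its other probe gave 0.71 in the truncated line and -0.04 in the full-length line. SAHH2, a gene for the hydrolase that clears the methylation by-product S-adenosylhomocysteine, rose 1.58-fold in the truncated line (0.66 ± 0.10, adjusted p = 0.0089). It gave -0.06 ± 0.08 in the full-length line, and the lines differed by 0.72 (SE 0.10, adjusted p = 0.0343). MAT3, an S-adenosylmethionine synthetase gene, rose by 0.35 ± 0.02 in the truncated line (adjusted p = 0.0226), although its other probes gave 0.14 and 0.24 and the call was lost without either truncated replicate and without the filter on dim probes.

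Methyl esterases of the MES family hydrolyse methyl esters such as methyl salicylate and methyl jasmonate. Of 16 tested genes, 2 rose and 2 fell in the truncated line (median -0.09), beside 7.09% and 6.15% of all features, and 1 rose and 0 fell in the full-length line (median 0.15), beside 9.41% and 6.14%. At an unadjusted p under 0.05, the truncated line had 7 of them lower and 2 higher, and the full-length line 0 lower and 6 higher. MES9 (-0.36 ± 0.04, adjusted p = 0.0272), whose enzyme is known to act on methyl salicylate, and MES16 (-0.30 ± 0.02, adjusted p = 0.0381) fell in the truncated line. MES12 (0.35 ± 0.10, adjusted p = 0.0349) and MES10 (0.31 ± 0.08, adjusted p = 0.0407), whose enzyme is known to act on methyl jasmonate, rose in it. ACL (AT2G23600), another member, rose in the full-length line (0.35 ± 0.05, adjusted p = 0.0211). MES9, MES10, MES12 and MES16 each lost their call without either truncated replicate, and ACL without either full-length replicate. All 5 calls were lost without the filter on dim probes, and the 4 of the truncated line also in Agilent's own log ratios. With offset 0 the calls of MES10, MES12 and MES16 were lost, and with marked spots kept that of MES16 (adjusted p = 0.0522).

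**Figure D5:**
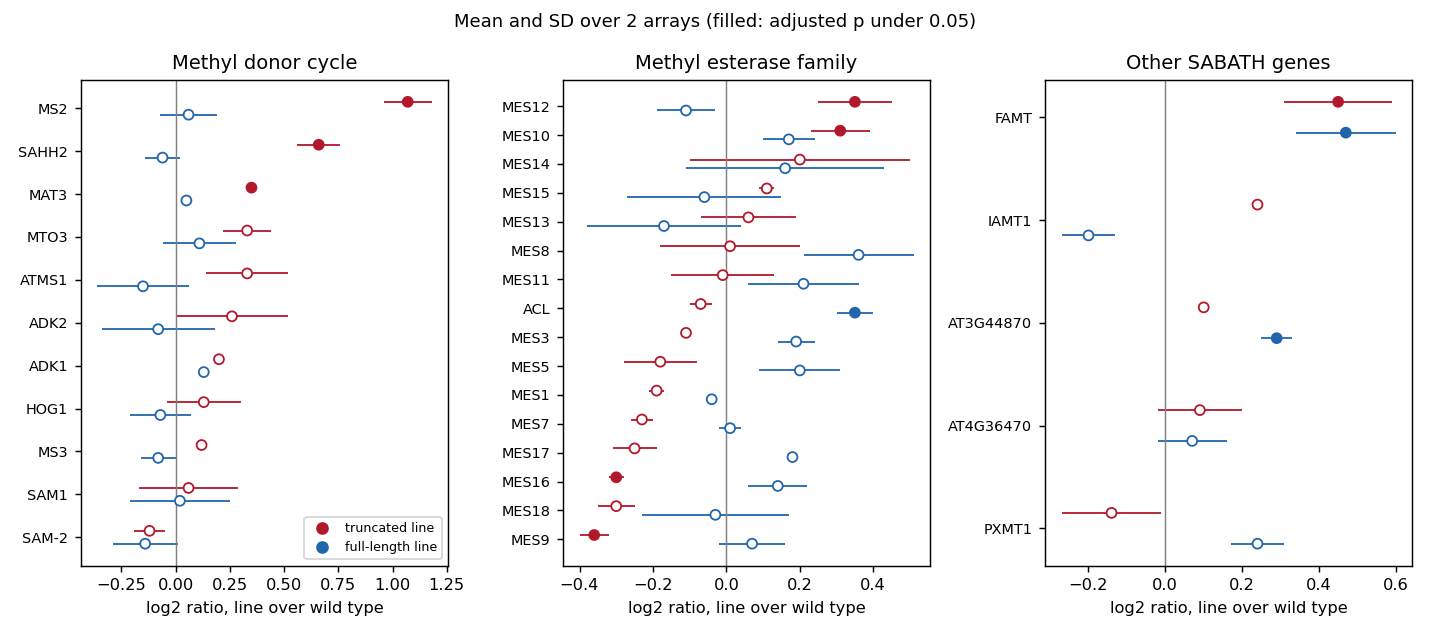
Mean log2 ratio of line over wild type with SD over 2 arrays for tested genes of the methyl donor cycle, the methyl esterase family and the other SABATH genes, with the truncated line in red drawn above the full-length line in blue. Filled symbols passed the test. MS2 and SAHH2 stand at 1.07 and 0.66 in the truncated line, apart from their full-length values of 0.06 and -0.06.

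Genes for the substrates of these enzymes were read from lists of their own. Among 9 tested jasmonate synthesis and conjugation genes, which bear on JMT, 3 rose and 0 fell in the truncated line (median 0.30), and 2 rose and 0 fell in the full-length line (median -0.02), where 7.09% and 9.41% of all features were called higher. LOX2, a chloroplast lipoxygenase gene, rose in both, by 0.91 ± 0.03 in the truncated line (adjusted p = 0.00323) and 1.90 ± 0.04 in the full-length line (adjusted p = 0.00107). Its other probes gave 0.24, 0.57 and 0.32 in the truncated line and 0.36, 1.26 and 0.86 in the full-length line, so all were below the brightest probe in both lines. The mean over all its probes was 0.51 in the truncated line. AOC1, an allene oxide cyclase gene, rose by 0.54 ± 0.03 in the truncated line (adjusted p = 0.0093) and 0.36 ± 0.05 in the full-length line (adjusted p = 0.0191). The other probe of AOC1 gave 0.15 in the truncated and 0.19 in the full-length line, and the mean over both was 0.35 in the truncated line. Among 10 salicylate genes, 1 rose and 0 fell in each line, a share near the 7.09% and 9.41% of all features called higher in the truncated and full-length lines, with medians of -0.04 in the truncated and 0.06 in the full-length line. That gene was EPS1, which acts in salicylate synthesis (0.38 ± 0.01 in the truncated line, adjusted p = 0.0183, and 0.50 ± 0.00 in the full-length line, adjusted p = 0.0084). At an unadjusted p under 0.05, 1 salicylate gene was lower in the truncated line and 0 in the full-length line, as were 0 and 1 jasmonate genes. Without either replicate, and without the filter on dim probes, the calls of EPS1 in the truncated line and of AOC1 in the full-length line were lost. With marked spots kept the full-length calls were lost for EPS1 (0.34, adjusted p = 0.105) and AOC1 (0.28, adjusted p = 0.121).

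Of 5 nicotinate salvage genes, which bear on NAMT1, 1 fell and 0 rose in the truncated line (median -0.03), where 6.15% of all features were called lower, and 0 passed in the full-length line under limma (median -0.13, with 1 lower at an unadjusted p under 0.05). The gene that fell was the nicotinamidase gene NIC1 (-0.31 ± 0.04, adjusted p = 0.0295), a call lost without either truncated replicate and without the filter. Of 9 genes for leaf volatiles on the array, 3 were tested. In the truncated line 1 of these rose (median 0.12), where 7.09% of all features were called higher. At an unadjusted p under 0.05, 1 of the 3 was lower in that line under limma. In the full-length line 0 passed (median 0.04, with 0 at an unadjusted p under 0.05). The gene that rose was HPL1, the hydroperoxide lyase gene of the green leaf volatile pathway (0.50 ± 0.13, adjusted p = 0.0194). Its call was lost without truncated replicate 2 and without the filter. Another probe of HPL1, above background in 0 channels, gave 0.10 in the truncated line, and the mean over both was 0.30.

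Whole plants hold several organs, so organ markers were read beside these genes. Of 17 root markers 16 were above background in all channels, and NRT2:1 was in 0. Of the 16 tested, 1 fell and 0 rose in the truncated line (median -0.10), and 3 fell and 0 rose in the full-length line (median -0.20), beside 6.15% and 6.14% of all features called lower. At an unadjusted p under 0.05, 6 were lower and 0 higher in the truncated line, and 8 were lower and 1 higher in the full-length line. MRN1 fell in the truncated line (-0.58 ± 0.28, adjusted p = 0.0394), a call lost without its replicate 2, in Agilent's own log ratios (-1.01), with offset 0 and without the filter. TIP2;3 (-0.76 ± 0.25, adjusted p = 0.0177) and CASP1 (-0.45 ± 0.06, adjusted p = 0.012) fell in the full-length line. Their calls were lost without the filter for TIP2;3 and without full-length replicate 1 for CASP1. The summed root marker intensity was 81000 and 82500 in the truncated line, against 90300 and 93400 in wild type, and 95500 and 96300 in the full-length line, against 89900 and 89200 in wild type. In the full-length line the sum was thus above wild type, whereas the median log2 ratio was -0.20. PYK10 had the highest ratio of the root markers there (0.20 ± 0.01, adjusted p = 0.0701), and its part in the sum was not tested. Of 10 photosynthesis markers 2 fell and 0 rose in the truncated line (median -0.09), beside 6.15% of all features called lower. In the full-length line 3 fell and 0 rose (median -0.26), beside 6.14% called lower. PSAD-2 fell in both lines (-0.30 ± 0.07 in the truncated line, adjusted p = 0.0394, and -0.49 ± 0.04 in the full-length line, adjusted p = 0.0106). PSAG also fell in both lines (-0.27 ± 0.04 in the truncated line, adjusted p = 0.0407, and -0.46 ± 0.00 in the full-length line, adjusted p = 0.0106). Its full-length call was not among those recomputed under the alternatives. PSAH2 fell in the full-length line (-0.51 ± 0.14, adjusted p = 0.0193). The truncated calls of PSAD-2 and PSAG were lost without either replicate, in Agilent's own log ratios, with offset 0 and without the filter, and that of PSAH2 without full-length replicate 1 and without the filter. Summed photosynthesis marker intensity was 938000 and 1240000 in the truncated line, against 1290000 and 1040000 in wild type, and 890000 and 1190000 in the full-length line, against 1320000 and 1090000 in wild type. For both lines this sum was below wild type with the line in Cy3 and above it with the line in Cy5. Of 8 floral markers, AP1, AP3 and SEP2 were above background in 0 channels and 4 were tested. Their summed intensity was 1260 and 1270 in the truncated line, against 1450 and 1430 in wild type, and 1750 and 1810 in the full-length line, against 1420 and 1480 in wild type. PI rose (0.86 ± 0.02, adjusted p = 0.00342) and SEP3 fell (-0.83 ± 0.12, adjusted p = 0.00546) in the truncated line, whereas SEP3 rose in the full-length line (0.51 ± 0.05, adjusted p = 0.0132), a call lost with marked spots kept (0.39, adjusted p = 0.0816). The other tested floral markers, SEP1 (-0.06 truncated, -0.12 full-length) and AT5G07230 (0.05 in each line), did not pass. The median of the 4 was 0.00 in the truncated line, where 7.09% of all features were called higher and 6.15% lower. It was 0.07 in the full-length line, where 9.41% were called higher. The part of organ composition in the SABATH ratios was not tested.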

How the data were processed

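RNA of each line and of wild type was hybridised on 4 arrays that share 1 slide and 1 scan. Per the file headers, the authors extracted spot values in Agilent Feature Extraction 10.7.3.1. The deposited files give median spot and background intensity, processed intensity, and the log10 ratio of Cy5 over Cy3. The deposited value table is on the log2 scale, in the direction line over wild type, with slopes of 0.998 to 1 on the turned log10 ratios and column medians of 0.01, -0.06, 0.04 and -0.07. For the values given here, outlier-marked gene spots (20 to 50 per array) were left out before any other step, a choice made with their effect on full-length replicate 1 known, background was corrected by normexp (offset 50), and ratios were normalised by loess. Intensities were further scaled between arrays (Aquantile). The brightest probe stood for a gene. Features well above background in the line channels of a line, or in all wild type channels, were tested: 22438, of which 20337 had a locus, and 20139 loci matched RefSeq's TAIR10.1 gene table, used for names and neighbours only. Means per line were fitted to all 4 arrays with limma 3.58.1 in R 4.3.3, and p-values were Benjamini-Hochberg adjusted (threshold 0.05). The fit was also run on simulated data, which checks the fit alone and bears on no result given here. P-values measure only the spread between these arrays, which includes their dye orientation.

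The 10 genes and all lists were chosen with earlier results of these data known. Named from each list are up to 4 genes (2 for salicylate, jasmonate and organ lists) per line with the largest ratio past the threshold. Alternatives covered flags, normalization, offset, filters, probe choice, the value table, the replicate block and leaving out each array. Probe and transcript sequences were not used here.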

Additional observations from a re-analysis of the deposited data

Results flagged for a closer look

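In several genes the ratio differed between the lines by the test of the difference itself, given as truncated minus full-length log2 ratio (limma). On chromosome 5 this difference was -1.76 for AT5G37940 (adjusted p = 0.00653), -0.97 for AT5G38000 (adjusted p = 0.013), -0.66 for AT5G38200 (adjusted p = 0.0279) and -0.78 for AT5G38005 (adjusted p = 0.041). Among methyl cycle genes it was 1.01 for MS2 (adjusted p = 0.0209) and 0.72 for SAHH2 (adjusted p = 0.0343). It was -0.99 for LOX2 (adjusted p = 0.0114), 0.77 for PI (adjusted p = 0.0201) and -1.34 for SEP3 (adjusted p = 0.00935). Over all features 3.12% passed this test. The calls of the difference for these genes were not recomputed under the alternatives. Over all features 701 differences were called, beside 0 with median centring and 873 with a stricter filter.

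Among the SABATH genes, AT5G38780 and AT3G21950 were below wild type on both truncated arrays and above it on both full-length arrays. The difference was -1.75 for AT5G38780 and -0.57 for AT3G21950, and was not tested.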

How the results depend on the processing

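No SABATH gene with 1 sign on both arrays of a line changed it under the 11 alternatives computed per line. AT5G37990 ranged from -2.37 to -1.85 in the truncated line, AT5G37970 from -2.34 to -1.67 and AT5G38020 from -1.38 to -1.19. NAMT1 ranged more widely in that line, from -1.54 to -0.63. The median of the 10 genes in the truncated line was -0.73 in Agilent's log ratios and in the value table, and -0.57 with offset 0. Without 1 truncated replicate it ranged from -0.46 to -0.32, and without 1 full-length replicate, in that line, from -0.15 to 0.03.

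Of 22438 features, 2972 were called in the truncated line, 3489 in the full-length line and 701 for the difference. With the replicate block, 12171, 12751 and 8782 were called. Without a filter the counts were 704, 1033 and 86. With median centring they were 41, 8 and 0 under limma (955, 1394 and 426 at an unadjusted p under 0.05), and all 36 calls of named genes were lost, with 0 signs turned. Marked spots kept gave 1018 in the full-length line and 367 for the difference. Offset 0 gave 1870 in the truncated line and 180 for the difference, which Agilent's log ratios put at 164 and the value table at 173. Leaving out 1 replicate gave 1325 to 1624 in the truncated line and 1773 to 1819 in the full-length line. The cause of these changes in the counts was not tested. Deviations of same-numbered arrays correlated at 0.78 over features. With 2 pairs, a number shared by dye orientation does not show pairing. Of the 36 calls of named genes, 20 were lost without the filter, 9 each with marked spots kept, in Agilent's log ratios and in the value table, 7 with offset 0, and 0 each with the block, a stricter filter and the mean over probes. Without full-length replicate 1 and 2, 8 and 3 of 14 were lost, and without truncated replicate 1 and 2, 10 and 11 of 22. Slide and scan could not serve as a block, since all arrays share them.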
